A study of Homo sapiens with 6 samples.

Results

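The mitochondrial ribosomal protein genes were taken as the protein-coding rows of the deposited expression table whose gene symbol is MRPL or MRPS followed by a number and, in a few cases, a letter from A to C. This gave 78 genes of the 60843 in the table. The cells were SW872-S, a line from a human liposarcoma, and the comparison was between 3 libraries labelled NC and 3 labelled TP53INP2 OE, in which a plasmid drives TP53INP2, a gene whose protein takes part in autophagy. All 6 libraries come from the one line, grown in DMEM with fetal bovine serum and antibiotics, with RNA taken up in Trizol and prepared with the Illumina TruSeq RNA kit. The sources used here do not say what NC stands for, whether the plasmid was carried transiently or stably, whether the cells were 1 clone, or whether a group's libraries were separate cultures. The p-values therefore reflect library-to-library spread, part or all of which may be technical. The 2 groups are written NC and TP53INP2_OE below.

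Mitochondria hold their own ribosome, which translates the messenger RNAs of the mitochondrial genome into core subunits of the respiratory chain and of ATP synthase. Its ribosomal RNAs are transcribed inside the organelle, whereas all its proteins are encoded in the nucleus, made in the cytosol and imported. The large subunit (the MRPL genes) holds the peptidyl transferase centre and the exit tunnel, and the small subunit (the MRPS genes) binds messenger RNA and decodes it. Some of these proteins descend from bacterial ribosomal proteins, and the others have no counterpart in bacteria.

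The table gives FPKM, fragments per kilobase of gene scaled to the library, so that levels of different genes can be set side by side per length. The reads behind the values summed to between 16038062 and 17607612 per library. TP53INP2 stood at 10.6, 9.45 and 9.67 FPKM in the NC libraries and at 18.9, 23.4 and 27.1 FPKM in the TP53INP2_OE libraries, which is a log2 fold change of 1.13 (adjusted p = 0.00282), so the labels match the gene that the plasmid carries. Of 13 mesenchymal and liposarcoma markers, 10 were at 1 FPKM or more in every library. Of 7 adipocyte markers 2 were (LPL and PPARG), while ADIPOQ, FABP4 and LEP were listed at 0. None of 5 leukocyte and none of 4 epithelial markers reached 1 FPKM in every library, whereas 3 of 4 endothelial markers did, and the summed level of the endothelial markers was 37.0 to 41.4 FPKM in NC and 34.1 to 35.7 FPKM in TP53INP2_OE. Its part in the results was not tested.

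Of the 78 genes, 77 averaged 0.5 FPKM or more and were tested. The exception was MRPL53, listed at 0 in every library. The 77 genes had between 31 and 2246 reads in a library, and 69 of them had at least 100 reads in every library. Their mean levels ran from 0.632 FPKM (MRPL38) to 64.6 FPKM (MRPS26), with a median of 12.8 FPKM over all 78, against 7.22 FPKM over the tested protein-coding genes.

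In TP53INP2_OE, 29 of the 77 genes fell and 14 rose, and 34 did not pass the test (limma on log2(FPKM + 1), Benjamini-Hochberg over all 14791 genes tested, adjusted p below 0.05). The 29 that fell are 37.7% of the tested members, and the share of all tested genes called lower was 18.6%. The 14 that rose are 18.2%, and the share of all tested genes called higher was 16.4%. Among protein-coding genes alone these shares were 23.0% lower and 19.8% higher. No test of the members' shares against these was made. More genes were called at higher levels, where the members lie: at a mean of at least 5 FPKM, 31 of 64 members (48.4%) were lower and 14 (21.9%) higher, against 33.1% and 29.4% of all genes at that level. The median log2 fold change of the members was -0.16, against 0.0032 over all tested genes, with 51 members below 0 and 26 above. All 3 TP53INP2_OE libraries lay below all 3 NC libraries for 36 members, and above them for 17. Over all tested genes the same held for 25.6% (below) and 25.2% (above). In bulk RNA, a lower level in every cell and a low level in some of the cells cannot be told apart.

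**Figure D1:**
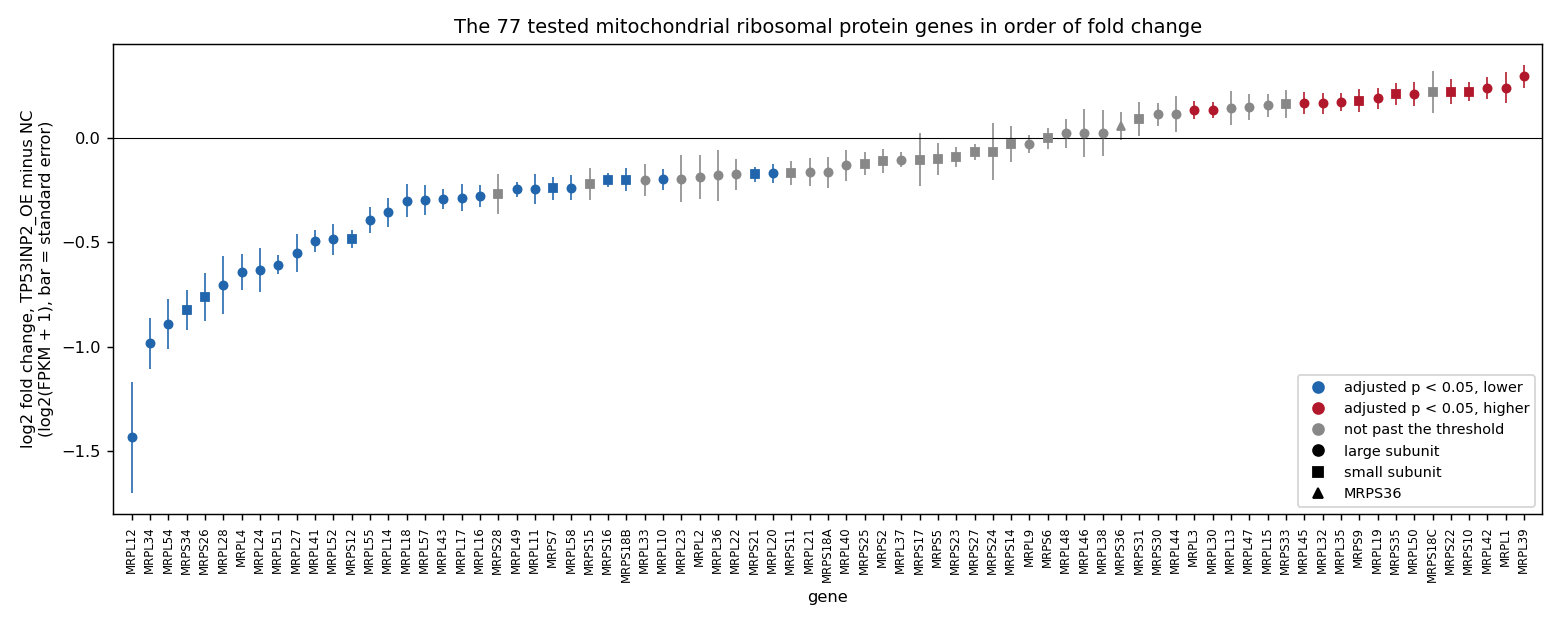
Log2 fold change (TP53INP2_OE minus NC, on the log2(FPKM + 1) scale) of each of the 77 tested mitochondrial ribosomal protein genes in order of its value, with its standard error as a bar; colour marks the call and the symbol marks the subunit. The decreases reach -1.43 (MRPL12), while the increases end at 0.30 (MRPL39).

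Both subunits held genes that fell and genes that rose, but the share that fell was larger in the large subunit. Of the 51 proteins of the large subunit (MRPS18A and MRPS30 among them, which sit in the large subunit despite their names), 50 were tested, of which 22 fell and 10 rose, with a median log2 fold change of -0.18. Of the 26 proteins of the small subunit 7 fell and 4 rose, with a median of -0.10. The share that fell was thus 44.0% in the large subunit and 26.9% in the small one, beside 23.0% of all tested protein-coding genes. Of the latter 19.8% rose, beside 15.4% of the small subunit and 10 of 50 genes of the large one. The remaining gene, MRPS36, codes for a protein of the 2-oxoglutarate dehydrogenase complex and is not found in structures of the ribosome. It did not pass the test, with NC at 11 ± 1.06 FPKM and TP53INP2_OE at 11.5 ± 0.265 FPKM (SD, n = 3 each). Split by descent as the standard nomenclature names it, 18 of the 46 genes with a bacterial counterpart fell (39.1%) and 8 rose (median -0.17). Of the 30 tested mitochondria-specific ones 11 fell (36.7%) and 6 rose (median -0.10). This split follows names and not a comparison of sequences: MRPS18A and MRPS18B are counted among the 30, and MRPS18C among the 46. Neither the difference between subunits nor that between classes of descent was tested, and no class was tested against all genes.

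The promoters are shown here because 29 of these genes moved one way and 14 the other. RefSeq promoters on GRCh38.p14 (250 bases before and 50 after the annotated start) were found for 69 of the 78 genes and searched on both strands for the core letters of 3 factors known from promoters of nuclear genes for mitochondrial proteins: CCGGAAG for the ETS factor GABPA (also called NRF2), CGCATGCG for NRF1 and AAGATGGC for YY1. No match of one factor overlapped that of another. The stretches below lie before the annotated start and outside annotated exons, are written 5′ to 3′ on the strand of the gene, and carry the matches in capitals (CTTCCGG is CCGGAAG on the other strand). MRPL12 had the largest decrease and no match. MRPS34, MRPL52, MRPL17 and MRPL58 fell, and MRPS10 and MRPL3 rose. Matches outside these stretches are not printed. There MRPL52 also held the GABPA letters and a further YY1 match, and MRPS10 the YY1 letters. MRPS34, MRPL17 and MRPL58 each held a further match of the factor shown.
MRPL12, chr17:81703301-81703356, plus strand: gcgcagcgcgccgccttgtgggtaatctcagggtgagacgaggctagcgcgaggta
MRPS34, chr16:1773156-1773206, minus strand: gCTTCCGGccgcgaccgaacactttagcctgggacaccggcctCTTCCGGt
MRPL52, chr14:22829821-22829878, plus strand: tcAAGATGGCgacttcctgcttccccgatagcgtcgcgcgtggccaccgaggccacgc
MRPL17, chr11:6683402-6683551, minus strand: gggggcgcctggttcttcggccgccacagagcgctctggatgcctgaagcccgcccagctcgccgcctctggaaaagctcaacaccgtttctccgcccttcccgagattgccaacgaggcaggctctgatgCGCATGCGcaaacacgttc
MRPL58, chr17:75012520-75012669, plus strand: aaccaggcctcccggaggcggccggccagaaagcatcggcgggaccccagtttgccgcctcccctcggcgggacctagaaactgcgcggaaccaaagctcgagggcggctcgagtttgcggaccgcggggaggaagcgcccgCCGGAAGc
MRPS10, chr6:42217866-42218015, minus strand: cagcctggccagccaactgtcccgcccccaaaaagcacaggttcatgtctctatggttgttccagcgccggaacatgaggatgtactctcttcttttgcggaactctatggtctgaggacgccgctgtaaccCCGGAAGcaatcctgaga
MRPL3, chr3:131502984-131503133, minus strand: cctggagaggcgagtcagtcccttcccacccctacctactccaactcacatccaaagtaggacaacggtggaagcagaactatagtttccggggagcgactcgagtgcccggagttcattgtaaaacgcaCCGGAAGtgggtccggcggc

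The GABPA letters were found in 29 of the 69 promoters (42.0%), against 10.3% of all 35116 promoters and 14.4% of those of protein-coding genes of the table. The YY1 letters were found in 20 (29%), against 2.89% and 3.99%, and the NRF1 letters in 3 (4.35%; MRPL17, MRPL22 and MRPS18C), against 2.02% and 2.86%. Of the 39 GABPA matches 30 ended before the start, whereas 15 of the 21 YY1 matches reached past it. Genes that fell and genes that rose held these letters side by side: at least 1 of the 3 was present in 17 of 28 promoters of genes that fell (60.7%), in 8 of 13 of genes that rose (61.5%) and in 16 of 27 of genes not called (59.3%). The GABPA letters were in 14 of the 28 promoters of genes that fell and 4 of the 13 of genes that rose, and the YY1 letters in 6 and 5. These differences were not tested. A match describes letters and not binding, and a promoter without a match, such as that of MRPL12, lacks only these letters in this stretch.

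The largest decreases were in the large subunit. MRPL12 (ENSG00000262814, chr17:81703367-81707517) forms the mobile stalk that receives the translation factors. It stood at 21.3, 16.6 and 13.2 FPKM in NC and at 7.47, 3.46 and 6.48 FPKM in TP53INP2_OE, which is 237 to 351 reads against 60 to 122. All 3 TP53INP2_OE libraries were low, the second lowest of all, and the lowest NC library was still above the highest of them. The group means were 17 ± 4.10 and 5.80 ± 2.09 FPKM (SD, n = 3 each), a log2 fold change of -1.43 ± 0.26 (SE, adjusted p = 0.00821). MRPL34 (chr19:17292609-17306843), a small basic protein bound to the large ribosomal RNA, was at 20.2, 23.0 and 23.3 FPKM in NC and at 11.1, 8.77 and 12.6 FPKM in TP53INP2_OE. The groups were well apart, and the fold change was -0.98 ± 0.12 (SE, adjusted p = 0.00319). MRPL54 (chr19:3762682-3768575), a protein with no bacterial counterpart, was at 16.1, 13.8 and 13.6 FPKM in NC and at 8.91, 6.38 and 6.89 FPKM in TP53INP2_OE. No library of one group reached the other, and the fold change was -0.89 ± 0.12 (SE, adjusted p = 0.00352).

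MRPL51 (chr12:6491886-6493841), another mitochondria-specific protein, showed the tightest of the large decreases. It was at 52.7, 49.0 and 47.8 FPKM in NC and at 33.1, 31.7 and 32.3 FPKM in TP53INP2_OE. The 3 TP53INP2_OE values lay close together and far below NC, with a fold change of -0.61 ± 0.04 (SE, adjusted p = 0.00166). MRPL4 and MRPL24, whose bacterial counterparts line the exit tunnel and its rim, fell by 0.64 (15.0 ± 1.08 to 9.25 ± 0.982 FPKM) and by 0.63 (19.7 ± 1.17 to 12.4 ± 2.0 FPKM) on the log2 scale. MRPL27, whose bacterial counterpart reaches into the peptidyl transferase centre, fell by 0.55 (10.2 ± 0.272 to 6.67 ± 0.994 FPKM), and MRPL28 fell by 0.70 (18.6 ± 2.06 to 11.1 ± 2.13 FPKM). MRPL52 fell by 0.48, from 11.5 ± 1.06 to 7.94 ± 0.518 FPKM. In each of these genes all 3 TP53INP2_OE libraries were below all 3 NC libraries (SD, n = 3 each, adjusted p from 0.00336 to 0.0104). They were chosen from the called genes, and 25.6% of all tested genes were apart in this direction. The other 13 genes of the large subunit that fell did so by 0.17 (MRPL20) to 0.49 (MRPL41), among them the stalk-base proteins MRPL10 and MRPL11, and MRPL58, a peptidyl-tRNA hydrolase built into the ribosome.

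In the small subunit the largest decreases were in 2 mitochondria-specific proteins. MRPS34 (chr16:1771890-1773155), which contacts the small ribosomal RNA, was at 48.5, 42.1 and 40.9 FPKM in NC and at 25.2, 21.3 and 26.5 FPKM in TP53INP2_OE. The groups did not overlap, and the fold change was -0.82 ± 0.10 (SE, adjusted p = 0.00293). MRPS26 (chr20:3046052-3048250) was the most abundant member per length, at 87.0, 79.8 and 77 FPKM in NC and at 55.8, 39.9 and 47.9 FPKM in TP53INP2_OE. Its lowest NC library was above its highest TP53INP2_OE library, and the fold change was -0.76 ± 0.12 (SE, adjusted p = 0.00489). MRPS12, the counterpart of the bacterial S12 protein that monitors decoding, fell by 0.48 on the log2 scale (21.1 ± 0.371 to 14.9 ± 0.627 FPKM, adjusted p = 0.00239). The remaining 4 genes that fell were MRPS7, MRPS16, MRPS18B and MRPS21, by 0.17 to 0.24.

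**Figure D2:**
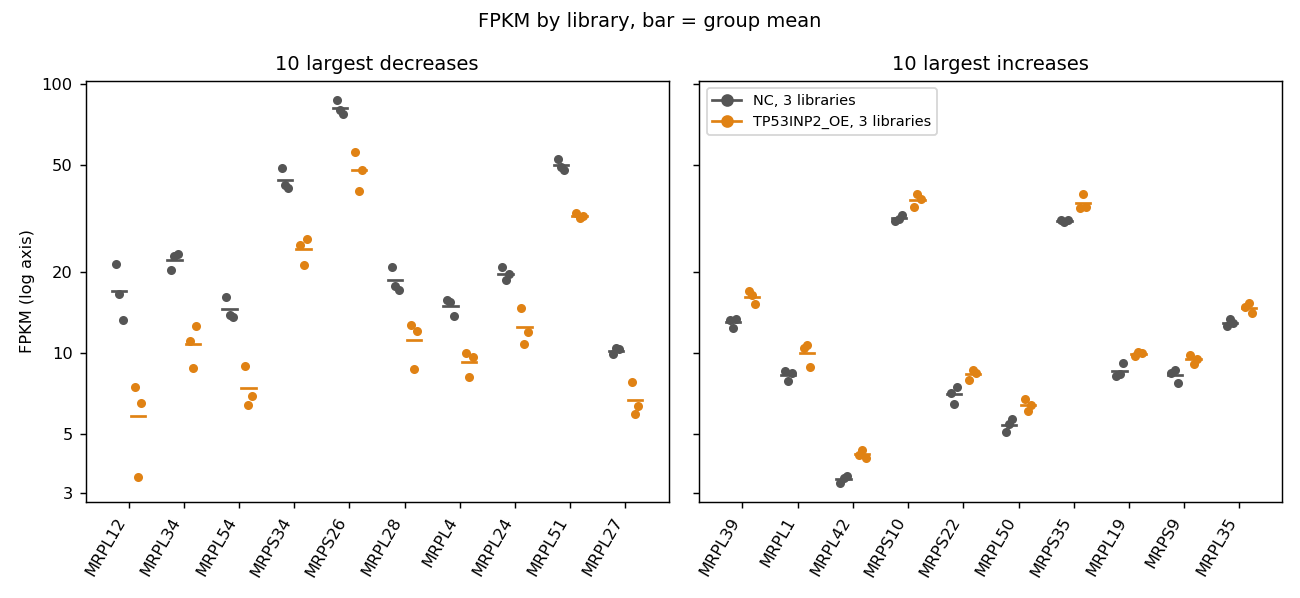
FPKM (log axis) in each of the 3 NC and 3 TP53INP2_OE libraries, with the group mean as a bar, for the 10 members with the largest decreases and the 10 with the largest increases among those past the threshold. The groups do not overlap in any of the 20 genes, but these were chosen as the largest called changes, so their separation follows largely from that choice. Of all tested genes, 25.6% had groups apart with TP53INP2_OE lower and 25.2% with it higher. The gaps are wide for the decreases (MRPL12, 17 to 5.80 FPKM) and narrow for the increases (MRPL39, 13 to 16.2 FPKM).

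The increases were smaller. MRPL39, a mitochondria-specific protein of the large subunit, had the largest, at 13.2, 12.4 and 13.4 FPKM in NC and at 17, 16.4 and 15.2 FPKM in TP53INP2_OE. The groups were apart by less than 2 FPKM, with a fold change of 0.30 ± 0.05 (SE, adjusted p = 0.00763). MRPS10, a protein of the small subunit's head, was at 30.9, 31.6 and 32.4 FPKM in NC and at 35.0, 39.1 and 37.3 FPKM in TP53INP2_OE. Each TP53INP2_OE library was above each NC library, and the fold change was 0.22 ± 0.05 (SE, adjusted p = 0.0128). MRPL1, of the stalk by which spent transfer RNA leaves, rose by 0.24 (8.27 ± 0.377 to 9.99 ± 0.980 FPKM, SD, n = 3 each, adjusted p = 0.0427). MRPL42, MRPS22, MRPL50, MRPS35, MRPL19, MRPS9 and MRPL35 rose by 0.17 to 0.24 with adjusted p from 0.0134 to 0.0426, and MRPL32, MRPL45, MRPL30 and MRPL3 by 0.13 to 0.17. Without NC replicate 1, the count of members called higher dropped from 14 to 1, MRPL39, whereas 22 members were still called lower. Over all tested genes the same leave-out took the share higher from 16.4% to 9.80% and the share lower from 18.6% to 12.2%. Leaving out any other single library left 4 to 9 members called higher, against 10.8% to 14.9% of all tested genes.

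The most abundant members were split. Per length, MRPS26 was followed by MRPL41, MRPL3 and MRPL14. MRPL41, a mitochondria-specific protein, was at 57.2, 54.7 and 55.4 FPKM in NC and at 40.1, 41.5 and 36.5 FPKM in TP53INP2_OE, clearly apart, with a fold change of -0.49 ± 0.05 (SE, adjusted p = 0.0028). MRPL3, which lies near the peptidyl transferase centre, was at 42.8, 41.5 and 44.7 FPKM in NC and at 45.4, 48.2 and 48.2 FPKM in TP53INP2_OE. Its groups were separated by less than 1 FPKM, and the fold change was 0.13 ± 0.04 (SE, adjusted p = 0.0484). MRPL14, at the interface of the 2 subunits, fell by 0.36 (46.4 ± 0.896 to 36.2 ± 3.56 FPKM, SD, n = 3 each, adjusted p = 0.00939).

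Summed over the 78 genes, the level was 1372, 1331 and 1332 FPKM in the NC libraries and 1194, 1140 and 1143 FPKM in the TP53INP2_OE libraries. Every TP53INP2_OE library was below every NC library, with means of 1345 ± 23.7 and 1159 ± 30.2 FPKM (SD, n = 3 each), a ratio of 0.862. The sum over the large subunit went from 876 ± 12.2 to 758 ± 21.6 FPKM (ratio 0.866), and that over the small subunit from 458 ± 12.2 to 390 ± 12.4 FPKM (ratio 0.850), so the subunits moved by nearly the same factor. As a share of all reads the 78 genes made up 0.310% ± 0.0030 of an NC library and 0.283% ± 0.0053 of a TP53INP2_OE library (mean and SD, n = 3 each). No test is given for these sums, since the members were chosen with earlier results in view.

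Transcript composition moved with the calls. The 29 genes that fell had a median GC content of 52.2% over the longest transcript (range 44.2% to 71.9%), the 14 that rose 40.7% (35.0% to 46.6%), and the 34 without a call 45.8%. Over the 77 genes the fold change and the GC content had a Spearman rho of -0.72 and a Pearson r of -0.69, a description across genes that share the same 6 libraries. Over all tested protein-coding genes rho was -0.78. The libraries themselves differed: per 10 points of GC content the log2 level relative to the mean of all libraries changed by 0.13, 0.11 and 0.082 in the NC libraries and by -0.075, -0.16 and -0.088 in the TP53INP2_OE libraries. All 3 NC libraries leaned towards GC-rich transcripts and all 3 TP53INP2_OE libraries away from them, so this lean and the group cannot be told apart by leaving out a library.

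The tested protein-coding genes were split into 4 bands of equal size by GC content, and the members were set beside all genes of their band, themselves included. Among genes of the lowest GC content (up to 41.9%) 9 of 20 members rose (45.0%) and 0 fell, against 53.0% and 0.887% of all tested protein-coding genes there. With limma at an unadjusted p below 0.05, 0 of these 20 members were lower too. In the next band (up to 48.3%) 5 of 20 rose and 4 fell, against 22.2% and 4.01%. In the band from 48.3% to 56.5% 15 of 20 members fell (75%), against 27.1% of all genes, and their median log2 fold change was -0.24 against -0.10. In the GC-richest band 10 of 17 fell (58.8%), against 59.9%, with a median of -0.39 against -0.27. Above 48.3% GC no member rose, and none of those 37 was higher at an unadjusted p below 0.05 in limma. The members' rate of decrease was thus above that of their GC peers in the middle bands and about equal to it at both ends, a difference that was not tested.

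**Figure D3:**
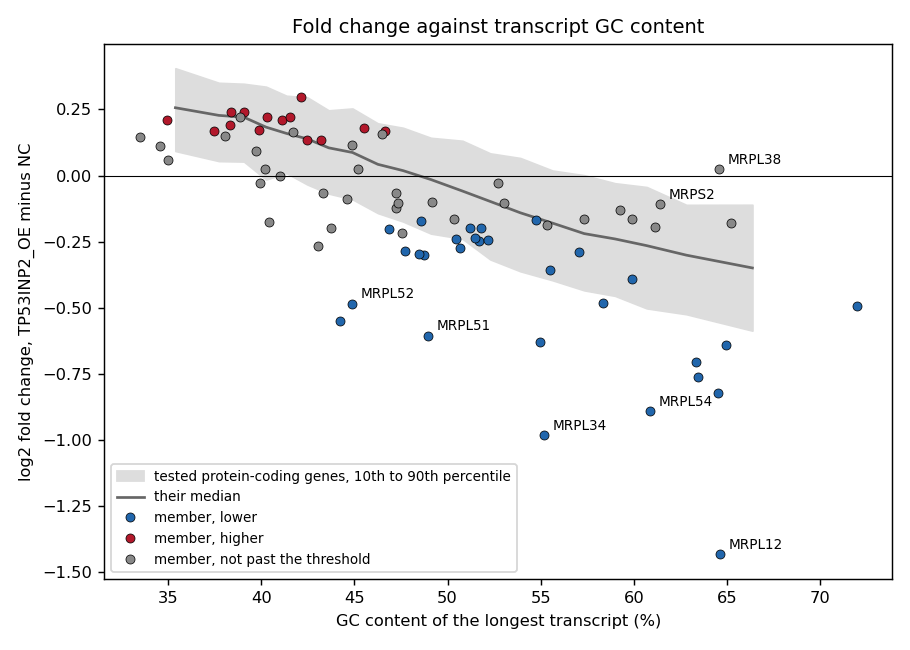
Log2 fold change (TP53INP2_OE minus NC) against the GC content (%) of the longest transcript, with the 77 members as points coloured by call, the band from the 10th to the 90th percentile of the tested protein-coding genes in grey and their median as a line. Members follow the slope of the band (rho -0.72), and several lie below it, MRPL12, MRPL34, MRPL54, MRPL51 and MRPL52 among them.

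A pair of further fits took composition out of the log2 values before the same test. When smooth curves on GC content and gene length had been fitted in each library and subtracted, 19 members (24.7%) were called lower and 1 higher, against 5.88% lower and 4.53% higher of 14548 genes. When coding length was added, since these genes code for short proteins (median coding length 598.5 bases against 1413 over the tested protein-coding genes), 22 members (28.6%) were called lower and 2 higher, against 9.84% lower and 8.66% higher of 11306 genes. Of the 29 genes that fell in the uncorrected test, 17 kept their call in the first of these fits and 19 in the second, while none of the 14 that rose kept theirs in either. At an unadjusted p below 0.05 there were 34 lower and 7 higher members in the first fit, and 30 and 9 in the second. The median fold change of the members was -0.12 and -0.077 in these fits, against 0.0016 and 0.00039 over all genes tested in each. With coding length included, the small subunit had 7 genes lower and 1 higher of 26, and the large subunit 15 lower and 1 higher of 50.

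The 10 members with the largest decreases all passed the fit with coding length included. With GC content, gene length and coding length taken out, MRPL12 stood at -1.07 ± 0.20 (SE, adjusted p = 0.00686) and MRPL34 at -0.78 ± 0.10 (SE, adjusted p = 0.00161). MRPL27 (-0.59, adjusted p = 0.00229) and MRPL52 (-0.49, adjusted p = 0.0019) did not shrink, and their transcripts have a GC content of 44.2% and 44.9%. MRPL54 stood at -0.56, MRPL51 at -0.52, MRPS34 at -0.47, MRPL24 at -0.44 and MRPS26 at -0.42, all with adjusted p below 0.05. MRPL51 had the smallest adjusted p of the members in this fit, 7.81e-05. MRPL28 (-0.37, adjusted p = 0.028) passed here but not with GC content and gene length alone (-0.40, adjusted p = 0.0698). MRPL41, the GC-richest member at 71.9%, went from -0.49 to -0.05 (adjusted p = 0.672), and MRPL14 to -0.14 (adjusted p = 0.143).

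Several genes changed their standing in the corrected fit. MRPS28 (-0.35, adjusted p = 0.0307), MRPL22 (-0.33, adjusted p = 0.0123) and MRPS27 (-0.18, adjusted p = 0.02) passed as lower, having missed the threshold before. The 2 called higher were MRPS2, the counterpart of a bacterial protein of the small subunit (0.19, adjusted p = 0.0108), and MRPL38 (0.36, adjusted p = 0.0322). Without correction MRPS2 averaged 26.3 ± 0.790 FPKM in NC against 24.3 ± 1.75 FPKM in TP53INP2_OE (SD, n = 3 each). Its uncorrected difference thus has the opposite sign (-0.11, adjusted p = 0.186). MRPL38 rests on 31 to 49 reads a library. Of the increases, MRPL39 stood at 0.14 (adjusted p = 0.0864) and MRPS10 at 0.10 (adjusted p = 0.0916), and MRPL50 and MRPL3 at -0.0033 and -0.0053.

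**Figure D4:**
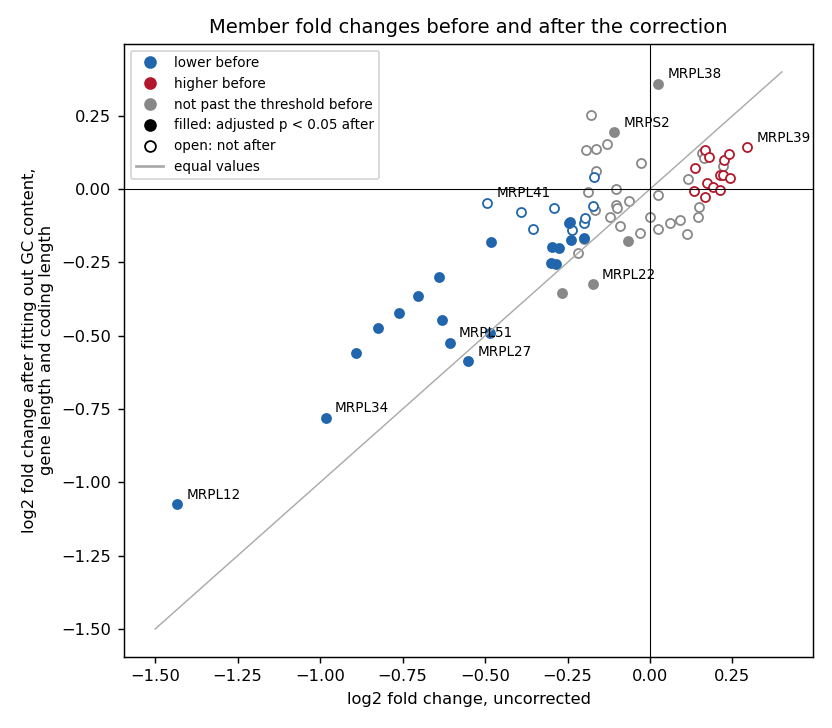
Log2 fold change of the 77 members without correction (x axis) and with GC content, gene length and coding length fitted out (y axis); colour gives the call before, filled points pass the threshold after, and the line marks equal values. MRPL12 stays lowest (-1.43 and -1.07), and the members called higher before move towards 0.

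The members' levels were also set beside the exons they share with other genes. In GENCODE release 29, 37 members share no exonic base with another gene, 40 share up to 50% of theirs on either strand, and 1, MRPL12, shares 68.2%, mostly with the readthrough gene AC139530.2 on its own strand, which has 0 reads in all 6 libraries. Of the 14 members under 5 FPKM, 12 are among the 40 and 2 among the 37, and the median level was 10.3 FPKM in the former and 15.4 FPKM in the latter. MRPL53, listed at 0, shares 45.2% of its exonic bases with CCDC142 on the same strand, whose own level went from 3.30 ± 0.225 FPKM to 2.22 ± 0.506 FPKM (SD, n = 3 each). MRPL38 shares 41.1%, MRPS18C 40.2% and MRPS24, overlapped by the readthrough gene URGCP-MRPS24, 23.2%. These genes were at 0.632, 1.93 and 1.47 FPKM over the 6 libraries. Among the large decreases, MRPL51 shares 31.3% of its exonic bases with NCAPD2 on the opposite strand. NCAPD2 itself fell from 56.2 to 49.3 FPKM (-0.19, limma adjusted p = 0.0232). The sources used here do not give the rule for reads in shared exons or the use of strand. These low levels, and the changes of members that share exons, MRPL12 and MRPL51 among them, are therefore uncertain. The part of the overlap in them was not tested.

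**Figure D5:**
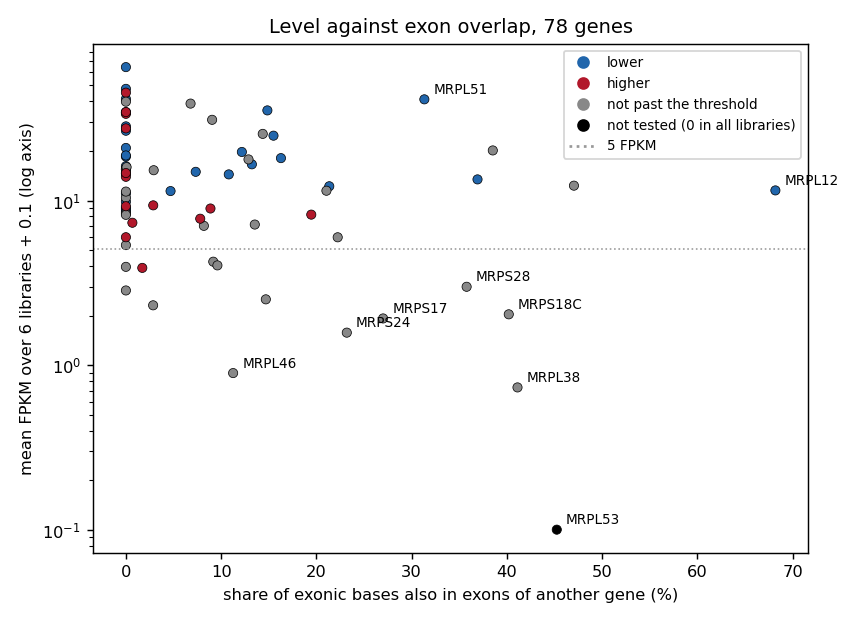
Mean FPKM over the 6 libraries plus 0.1 (log axis) of the 78 members against the share of their exonic bases (%) that also lie in exons of another gene, coloured by call, with a dotted line at 5 FPKM. Of the 14 members under the line, 12 share exonic bases, and MRPL12 lies alone at 68.2%.

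Processed pseudogenes are common in this family. The table holds 75 pseudogene rows named after 34 of the members. In 2 cases they hold more than 5% of the reads of their member, 9.50% for MRPS31 and 6.19% for MRPL45. MRPL53 is not in that count: its pseudogene holds 5 reads over the 6 libraries and the gene itself 0. The sources used here do not give the rule for reads that match both a gene and its pseudogene. These shares therefore do not bound the uncertainty in the values of the 34 members. Several members also start within 1000 bases of a neighbour on the other strand. Of 16 such pairs counted 14 had both genes tested, and 11 of these had fold changes of the same sign. Not every such pair is among the 16: MRPS12 and its neighbour SARS2, whose exons overlap, are not. The share of same-sign pairs among other neighbouring genes was not computed, so this count has no background. Fold changes also followed GC content over all tested protein-coding genes, and its part in the pairs was not tested. In 1 pair both fell, MRPL49 and FAU, a precursor of a cytosolic ribosomal protein (-0.25 and -0.44), in 1 both rose, MRPL30 and MITD1, and in 1 they went opposite ways, MRPL18 falling by 0.30 and TCP1, a chaperonin subunit, rising by 0.11.

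The mitochondrial ribosome also holds proteins that carry other names. Of 5 listed, 3 fell (60%) and 1 rose (20%), beside 18.6% and 16.4% of all tested genes. With so few genes these shares are coarse, and they were not tested. AURKAIP1, a protein of the small subunit, fell from 55.5 ± 2.35 to 31.0 ± 2.31 FPKM (SD, n = 3 each), a log2 fold change of -0.82 (adjusted p = 0.00166), as large as that of MRPS34. CHCHD1, also of the small subunit, fell by 0.41 (17.7 ± 0.443 to 13.1 ± 0.643 FPKM, adjusted p = 0.0029), and GADD45GIP1 of the large subunit by 0.37 (40.2 ± 2.27 to 30.9 ± 1.82 FPKM, adjusted p = 0.00529). PTCD3 rose by 0.20 (adjusted p = 0.0256), and DAP3, a GTP-binding protein of the small subunit, did not pass the test, at 0.055 (adjusted p = 0.338). With GC content, gene length and coding length taken out, AURKAIP1 (-0.41) and CHCHD1 (-0.43) stayed past the threshold. GADD45GIP1 (-0.072, limma adjusted p = 0.445) and PTCD3 (0.079, adjusted p = 0.288) no longer passed. This left 2 of the 5 lower and 0 higher, beside 9.84% and 8.66% of all genes in that fit. The ribosomal RNA of the large subunit, MT-RNR2, went the other way, at 1200, 1231 and 1255 FPKM in NC and 1485, 1601 and 1498 FPKM in TP53INP2_OE. Every TP53INP2_OE library was above every NC library, with a fold change of 0.31 (adjusted p = 0.00359), while that of the small subunit, MT-RNR1, missed the threshold (317 ± 29.5 to 375 ± 26.8 FPKM, 0.25, adjusted p = 0.0511). Removal of ribosomal RNA is not mentioned in the sources used here.

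Factors that build the mitochondrial ribosome were listed as 31 genes, of which 30 were tested. Of these 9 fell (30%) and 2 rose (6.67%), beside 18.6% and 16.4% of all tested genes, with a median of -0.092. The 5 largest decreases among those that passed were in RCC1L (-0.40, adjusted p = 0.00301), MTG2, a GTPase of the large subunit's assembly (-0.39, adjusted p = 0.0033), DDX28, an RNA helicase (-0.36, adjusted p = 0.0176), MPV17L2 (-0.33, adjusted p = 0.015) and RPUSD3, a pseudouridine synthase family member (-0.33, adjusted p = 0.0255). MRM1, a methyltransferase of the large ribosomal RNA, had a larger difference that missed the threshold (-0.49, adjusted p = 0.0584). With GC content, gene length and coding length taken out 5 fell (16.7%) and 1 rose (3.33%), beside 9.84% and 8.66% of all genes in that fit. The 5 were RCC1L, MALSU1, NGRN, RBFA and AFG3L2, of which MALSU1 and AFG3L2 had missed the threshold before. MTG2, DDX28, MPV17L2 and RPUSD3 did not pass in that fit, with adjusted p from 0.0677 (MTG2) to 0.871 (MPV17L2). Of 18 genes for mitochondrial translation factors and regulators 17 were tested. Of these 3 fell and 3 rose (17.6% each way), close to the shares over all tested genes, and the median was 0.072. TUFM, the elongation factor that brings aminoacyl-tRNA to the ribosome, fell from 139 ± 3.57 to 102 ± 7.25 FPKM (SD, n = 3 each; -0.44, adjusted p = 0.00325), and TACO1, an activator of COX1 translation, fell by 0.44 (adjusted p = 0.037). LRPPRC, which stabilises mitochondrial messenger RNA, rose by 0.31 (24.5 ± 0.502 to 30.6 ± 1.78 FPKM, adjusted p = 0.00527), GFM2, a ribosome recycling factor, by 0.24 (adjusted p = 0.00473) and MTRF1, of the release factor family, by 0.31 (adjusted p = 0.0443). TUFM and LRPPRC stayed past the threshold in the fit with coding length taken out too, at -0.22 and 0.13, among 2 genes lower (11.8%) and 1 higher (5.88%).

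Set beside 2 other large groups of short nuclear genes, the members' calls were more mixed in direction in the uncorrected test. Of 80 tested cytosolic ribosomal protein genes 46 fell (57.5%) and 1 rose (1.25%), with a median of -0.19. Of 36 tested nuclear subunits of respiratory complex I 15 fell (41.7%) and 1 rose (2.78%), with a median of -0.15. The members stood at 37.7% and 18.2%, and all tested genes at 18.6% and 16.4%. With GC content, gene length and coding length taken out, 35 cytosolic ribosomal protein genes were lower (43.75%) and 1 higher (1.25%). For complex I these counts were 7 (19.4%) and 2 (5.56%), and for the members 22 (28.6%) and 2 (2.60%). All genes in that fit stood at 9.84% and 8.66%, and complex I was then more mixed than the members. No test of a difference between these groups was made, and all of them rest on the same 6 libraries.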

How the data were processed

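The authors deposited 1 table of FPKM values for 6 libraries. Bowtie 0.12.2, GRCh38 and mm8 appear in the submitters' processing notes without a role, and the counting of reads over genes, strand use included, was not given in the sources used here. Table positions are given as on GRCh38, since all 78 members were found in GENCODE release 29 and 63 of them had the same start or end there. FPKM times gene length, divided by its smallest positive value in each library, came out as whole numbers (tolerance 0.01). These were taken as reads, on the assumption that the smallest value is a single read, and gave the depths.

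Values were taken as log2(FPKM + 1), which understates changes of low genes. Genes averaging 0.5 FPKM or more were tested in limma 3.58.1 (R 4.3.3; lmFit and eBayes with a trend; Benjamini-Hochberg over all tested genes; threshold 0.05), and every adjusted p comes from it. The corrected fits subtracted, in each library, natural splines with 5 degrees of freedom on GC content, gene length and, in the second, coding length. The test was checked on simulated data without a GC bias, and the corrections on data with a bias linear in GC content. Splines on GC content can remove such a bias by design, so the check does not show how they act on these libraries. The plan held a count test in case the table held raw counts, and it was not used; voom (limma) on the whole reads served as an alternative. Subunit and descent follow the standard ribosome nomenclature. The members and lists were chosen with earlier results of these data known. Named were TP53INP2, the 10 largest decreases and increases among called members, the 10 largest called after correction, the 4 members of highest level, those below the filter, up to 5 called genes of each list, and members for their overlap with other genes; others were named after their values were seen. Alternatives were another pseudocount, filters, TPM, quantile normalization, voom, protein-coding genes alone, the corrections, a block on replicate number and leaving out each library.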

Additional observations from a re-analysis of the deposited data

How the results depend on the processing

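Of the 29 members that fell, 21 kept their call whichever library was left out, and 12 kept it under all 17 alternatives, among them MRPL12, MRPL34, MRPL54, MRPS34, MRPS26, MRPL24, MRPL51, MRPL27 and MRPL52. Of the 14 that rose, 1 (MRPL39) kept its call in all 6 leave-outs and 0 kept it under all 17 alternatives.

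The count of members lower was 19 after correction for GC content and gene length, 22 with coding length added, and 22 to 28 with a library left out. Over all genes tested in each, the shares lower were 5.88%, 9.84%, and 12.2% to 17.5%. The count of members higher was 6 with no filter on low values, 1 and 2 in the corrections without and with coding length, and 1 (without NC replicate 1) to 9 with a library left out. The shares higher over all genes were 5.18%, then 4.53% and 8.66%, and 9.80% to 14.9%. The members' median was -0.117 with quantile normalization, -0.116 and -0.077 in the corrections, and -0.121 to -0.171 with a library left out. Assembly genes lower numbered 5 with no filter, 4 and 5 in the corrections, and 5 without any 1 of the NC libraries, up to 7 without a TP53INP2_OE library; higher, 0 and 1 in the corrections. At an unadjusted p below 0.05 in limma 2 assembly genes were higher in the first correction, and voom called 3. Translation genes lower numbered 1 in the first correction and 1 to 3 with a library left out, and higher 1 in each correction. Among the genes chosen by the naming rule, signs reversed for MRPL19 in the first correction (-0.0159), and for MRPL50 (-0.0033) and MRPL3 (-0.0053) in the second. Of the other called members MRPL32 (-0.029 and -0.027 in the 2 corrections) and MRPL20 (0.042 in the second) also changed sign. Other pseudocounts, filters, units and normalizations, voom and protein-coding genes alone gave 23 to 33 members lower. In these settings 6.05% (no filter) to 33.1% (mean of at least 5 FPKM) of all genes were lower.

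Replicate numbers are shared by the groups, but same-numbered libraries deviated together with correlations of only 0.017, 0.0119 and 0.0107 across genes, so the numbers were not taken as pairs. With a replicate block 28 members were lower and 7 higher, beside 16.3% and 13.4% of all tested genes, and 1 translation gene was lower. With the block and the GC and gene length correction together these were 13 lower and 0 higher, with a median of -0.116, 0 assembly genes either way, 1 translation gene lower and 0 higher, and MRPL19 again at -0.0159. Of all genes in that fit 2.76% were lower and 1.84% higher. In that fit 32 members were lower and 5 higher at an unadjusted p below 0.05 in limma, and 8 and 2 assembly genes and 2 higher translation genes. Depth limits the members with few reads, down to 31 in a library, whose values move in coarse steps.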
